A study of Mus musculus with 154 samples.

Results

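The comparison described here set the livers of 8 male (B6.A17 x B6)F1 mice against those of 20 male B6 mice, 2 of the 24 strains in the series. B6 is the inbred strain C57BL/6J. B6.A17 is a chromosome substitution strain (CSS), in which chromosome 17 of B6 is replaced by that of the inbred strain A/J, and all other chromosomes come from B6. In the names used here the dam stands first, so B6.A17 dams were mated with B6 sires and the offspring were heterozygous for chromosome 17, with the A/J copy always inherited from the mother. No other allele or treatment separated the groups. All mice of both groups were 5 weeks old and had been fasted overnight, and total RNA from a single liver lobe, the caudate, was sequenced. Each cross drew its mice from several breeding cages, but the sources used here do not tie mice to cages or to sequencing runs. Members were taken by strain label alone. The 13289 genes measured comprised 630 on chromosome 17 and 12659 elsewhere.

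The total of counted reads per mouse lay between 11866128 and 19247473 in (B6.A17 x B6)F1 and between 6752637 and 25630807 in B6. Levels are given in CPM, the counts of a gene scaled to a library size common to all mice, after scaling by the trimmed mean of M-values (TMM), whose factors lay between 0.736 and 1.03 in the CSS and between 0.709 and 1.06 in B6. The 16 hepatocyte markers measured summed to 107421 to 167424 CPM in the CSS and 119742 to 183459 CPM in B6, and none of them passed the test (edgeR; 4 had an unadjusted p under 0.05, and DESeq2 called 0). Fold changes, their standard errors (SE) and p-values adjusted by the Benjamini-Hochberg method come from the quasi-likelihood F-test of edgeR, with 5 surrogate variables for hidden variation. A gene with an adjusted p under 0.05 is called. An unadjusted p under 0.05 was reached by 177 of 630 genes on chromosome 17 and 2357 of 12659 elsewhere (edgeR). Counts of list members at an unadjusted p under 0.05 in this comparison stand beside these. The fitted fold change is corrected for these variables and can therefore differ from the ratio of the CPM medians.

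Chromosome 17 of the mouse carries the major histocompatibility complex (MHC), called H2. Its class I genes encode cell-surface proteins that show peptides from inside the cell to T cells, its class II genes do the same for peptides taken up by antigen-presenting cells, and the region between them holds complement and heat shock genes. Outside the complex lie genes with roles in liver metabolism, among them Glo1, which encodes glyoxalase 1, the enzyme that clears methylglyoxal formed by glycolysis, and the cluster around the imprinted Igf2r gene. A gene on the substituted chromosome can differ because its own sequence differs between A/J and B6, which is called a cis effect, while a difference at a gene elsewhere is called a trans effect.

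On chromosome 17, 108 of 630 genes were called, which is 17.1%, and 53 of them were higher (8.41%) and 55 lower (8.73%) in (B6.A17 x B6)F1. Off chromosome 17, 380 of 12659 genes were called, 174 higher (1.37%) and 206 lower (1.63%), in all 3.0% of the genes tested. The median log2 fold change over all genes was 0.00 on either side. Called genes differed by little in most cases, with a median absolute log2 fold change of 0.33 on chromosome 17 and 0.31 elsewhere, and 6 and 14 genes, respectively, reached a log2 change of 1. The CPM ranges of the groups were separate for 6 chromosome 17 genes, which is 0.952% of them, and for 0 genes elsewhere, which is 0.00%. The 6 genes were H2-T10, H2-Q2, C4a, H2-Q5 and Glo1, which were higher, and Plcl2, which was lower. H2-Q5 and Plcl2 were named after their values were seen.

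**Figure D1:**
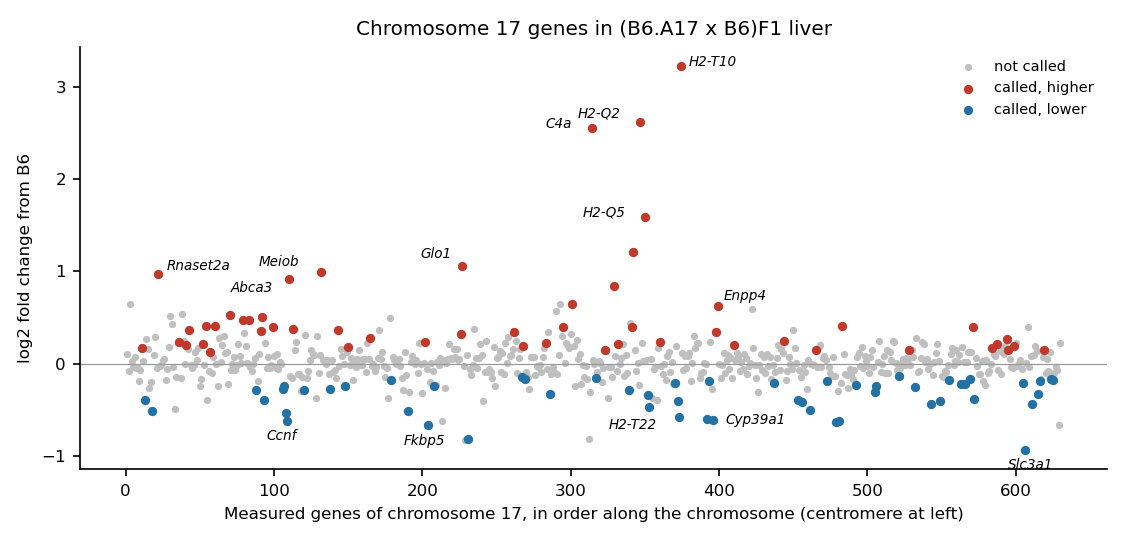
Log2 fold change in (B6.A17 x B6)F1 (n = 8) against B6 (n = 20) for the 630 measured genes of chromosome 17, plotted in their order along the chromosome; red points were called higher, blue points called lower, grey points not called. The called genes lie along the whole chromosome, and the 4 with the greatest fold changes, H2-T10, H2-Q2, C4a and H2-Q5, all belong to the H2 region.

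Called genes were spread along the chromosome. In bins of 5 Mb, the share of genes called was 22.2% of 72 genes between 20 and 25 Mb, 13.6% between 30 and 35 Mb, 23.3% of 60 between 35 and 40 Mb and 33.3% of 21 between 85 and 90 Mb, and 17 of the 19 bins held at least 1 call. The first and the last bin held none, with 5 and 4 genes tested in edgeR.

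The MHC class I heavy chain genes moved in both directions. Of 13 members measured, 2 were called higher and 5 lower (53.8%, beside 17.1% of all genes on chromosome 17). The median log2 fold change was 0.01. H2-K1, a classical class I gene (chr17:33996017-34000347, mm10, minus strand), was at 429 to 704 CPM in B6 (median 594) and at 433 to 507 CPM in the CSS (median 462). All 8 CSS mice lay below the B6 median, inside the B6 range, and the log2 fold change was -0.32 (SE 0.07, adjusted p = 6.56e-05, edgeR). H2-D1, the other classical gene, was at a median of 284.5 CPM in B6 and 281.4 CPM in the CSS and was not called (log2 fold change 0.01, SE 0.06, adjusted p = 0.976, edgeR). H2-Q10, which encodes a class I protein that the liver secretes, was at 677.9 to 1117 CPM in B6 (median 854) and at 512 to 873 CPM in the CSS (median 661). It fell by 0.47 on the log2 scale (SE 0.06, adjusted p = 1.37e-11, edgeR), and 5 of 8 mice lay below the lowest B6 mouse. H2-T23, which encodes Qa-1, the ligand of an inhibitory receptor of natural killer cells, was at 82.6 to 114 CPM in B6 (median 99.7) and at 68.7 to 98.2 CPM in the CSS (median 75.3). Its log2 fold change was -0.40 (SE 0.05, adjusted p = 9.17e-11, edgeR), with 6 of 8 mice below all B6 mice. H2-Q7 had a log2 fold change of -0.34 (adjusted p = 0.0312, edgeR), and its call was lost when single CSS mice were left out (adjusted p up to 0.103).

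H2-T22 and H2-T10 are neighbours that encode ligands of gamma-delta T cell receptors and are nearly identical in sequence, which bears on how their reads can be assigned. The first 120 bases of their second coding exon in the B6 reference (mm10, GENCODE vM21 transcripts, both on the minus strand, H2-T10 at chr17:36120756-36120875 and H2-T22 at chr17:36042009-36042128) are shown to let the reader see how little separates them, with the differing base in capitals.
H2-T10: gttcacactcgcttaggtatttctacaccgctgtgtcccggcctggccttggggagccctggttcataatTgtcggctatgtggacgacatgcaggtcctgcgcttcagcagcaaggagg
H2-T22: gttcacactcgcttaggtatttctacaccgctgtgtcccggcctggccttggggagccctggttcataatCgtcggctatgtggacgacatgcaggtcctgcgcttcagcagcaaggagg
The whole exon of 261 bases differed at 3 positions. Of all 50-base stretches in the annotated transcripts, the length of the reads, 50.4% in H2-T10 and 53.5% in H2-T22 also occurred in another gene, most often in each other.

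H2-T10 was at 0.358 to 1.80 CPM in B6 (median 0.829) and at 4.22 to 11.5 CPM in the CSS (median 7.77). The groups did not overlap, and the log2 fold change of 3.22 (SE 0.17, adjusted p = 1.26e-37, edgeR) was the greatest of the chromosome. H2-T22 was at 22.7 to 34.6 CPM in B6 (median 26.7) and at 12.3 to 29.4 CPM in the CSS (median 18.7), and it fell by 0.58 on the log2 scale (SE 0.07, adjusted p = 1.94e-11, edgeR). Added in each mouse, both genes came to a median of 27.5 CPM in B6 (23.5 to 35.5) and 26.5 CPM in the CSS (16.6 to 40.9), so the sum overlapped where the separate values of H2-T10 did not. A split of the same reads between these genes cannot be told apart from opposite changes of both. H2-Q2 was at 0.341 to 1.63 CPM in B6 (median 0.844) and at 4.68 to 6.38 CPM in the CSS (median 5.51), with a log2 fold change of 2.62 (SE 0.18, adjusted p = 2.38e-26, edgeR) and no overlap. H2-Q5, annotated as a polymorphic pseudogene in B6 as H2-T10 is, was not on the list of 13 and was at 0.512 to 2.21 CPM in B6 and 2.51 to 4.05 CPM in the CSS (log2 fold change 1.59, SE 0.18, adjusted p = 2.20e-13, edgeR). Shared stretches made up 16.1% of H2-Q2 and 36.4% of H2-Q5. The remaining members measured, H2-D1, H2-M3, H2-Q1, H2-Q4, H2-Q6 and H2-T24, had log2 fold changes between -0.24 and 0.19 and were not called. Over the 13 members the summed level was 1542 to 2251 CPM in B6 (median 1925) and 1424 to 1862 CPM in the CSS (median 1572).

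Of the class II genes, H2-Aa alone was called, among 7 measured on chromosome 17 whose fitted changes were all positive (median log2 fold change 0.29). H2-Aa, which encodes the alpha chain of the I-A molecule, was at 9.69 to 31.6 CPM in B6 (median 15.1) and at 13.1 to 35.3 CPM in the CSS (median 23.8). The ranges overlapped, with 7 of 8 mice above the B6 median, and the log2 fold change was 0.65 (SE 0.17, adjusted p = 0.00379, edgeR). Its partner chain H2-Ab1 had a log2 fold change of 0.32 (SE 0.19, adjusted p = 0.249, edgeR) and H2-Eb1 of 0.19 (SE 0.19, adjusted p = 0.548, edgeR). Levels of the class II genes vary with the number of antigen-presenting cells, and in bulk liver more cells of a type and more RNA per cell cannot be told apart. The macrophage markers, 18 measured with the 2 on chromosome 17, included 3 called higher, Clec4f, Folr2 and Aif1 (16.7%, beside 3.67% of all genes tested). The 16 markers on other chromosomes summed to 652 to 1076 CPM in B6 and 741 to 1211 CPM in the CSS. The part of macrophages in the H2-Aa result was not tested. In the peptide loading group, Psmb9, a subunit of the immunoproteasome, rose by a log2 fold change of 0.40 (SE 0.14, adjusted p = 0.0373, edgeR), while Tap1, Tap2, Tapbp and Psmb8 were between -0.04 and 0.22 and were not called. The Psmb9 call was lost without single CSS mice (adjusted p up to 0.187). Psmb9 overlaps Tap1 on the opposite strand, and the strand setting of the counting is not given in the sources used here.

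The complement genes of chromosome 17 were separated by C4a. C4a encodes the sex-limited protein, a close copy of complement C4, and rose from 1.48 to 4.43 CPM in B6 (median 2.88) to 12.8 to 24.6 CPM in the CSS (median 17.5). All 8 mice were above all B6 mice, and the log2 fold change was 2.55 (SE 0.14, adjusted p = 1.78e-34, edgeR). C4b, complement C4 itself and far more abundant, was at a median of 467 CPM in B6 (377 to 1009) and 371 CPM in the CSS (308 to 473), with a log2 fold change of -0.31 (SE 0.12, adjusted p = 0.0611, edgeR). Shared 50-base stretches made up 30.6% of C4a and 34.6% of C4b. Summed in each mouse, C4a and C4b came to a median of 469 CPM in B6 and 389 CPM in the CSS. C2, Cfb and C3, which act in the classical and alternative pathways and at their junction, had log2 fold changes of 0.00, 0.03 and -0.09 (adjusted p = 0.996, 0.919 and 0.567, edgeR). Of 22 complement genes elsewhere, Mbl1, a mannose-binding lectin, was called higher (log2 fold change 0.32, SE 0.08, adjusted p = 0.0172, edgeR). The heat shock gene Hspa1b of the same region varied more within each group than between them, at 0.969 to 7.16 CPM in B6 and 0.825 to 5.84 CPM in the CSS (log2 fold change -0.37, SE 0.29, adjusted p = 0.413, edgeR).

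**Figure D2:**
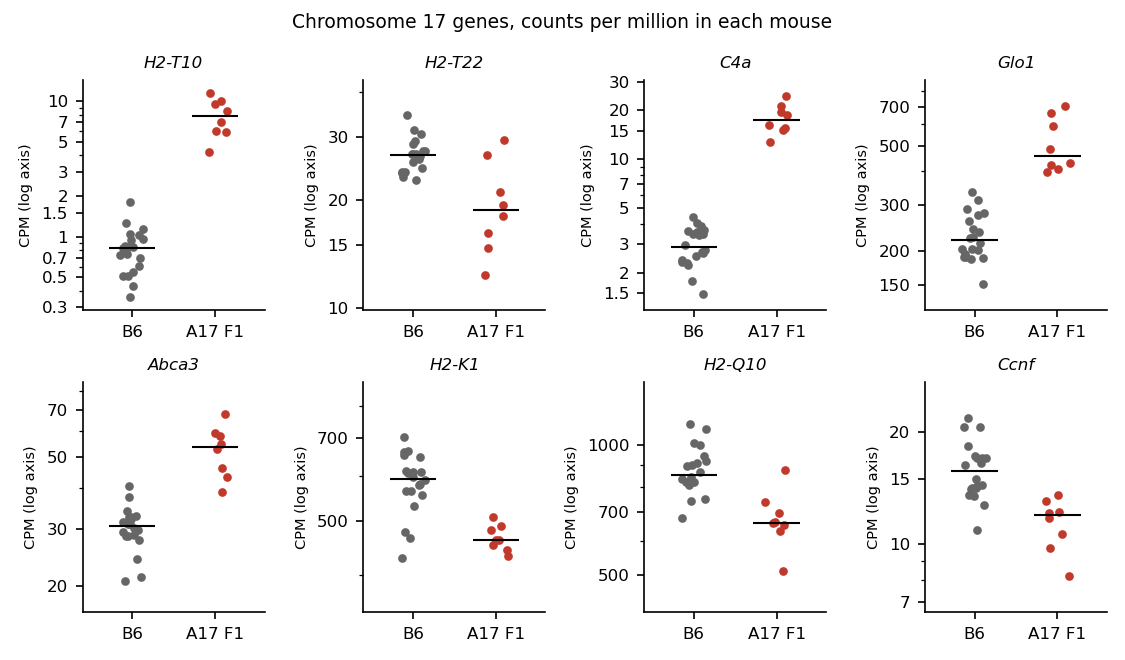
CPM on a log axis for 8 genes of chromosome 17 in each of 20 B6 mice (grey) and 8 (B6.A17 x B6)F1 mice (red, marked A17 F1), with bars at the group medians. The groups are separate for H2-T10, C4a and Glo1 and overlap for H2-T22, Abca3, H2-K1, H2-Q10 and Ccnf.

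Outside the MHC, Glo1 (chr17:30584936-30626871, mm10, minus strand) was the chromosome 17 gene with the greatest change at a high level. It was at 150 to 334 CPM in B6 (median 220) and at 399 to 705 CPM in the CSS (median 457.2). The groups did not overlap, and the log2 fold change was 1.06 (SE 0.08, adjusted p = 3.76e-25, edgeR). Of the other genes of its neighbourhood measured on chromosome 17, the adjacent Btbd9 rose by a log2 fold change of 0.32 (SE 0.06, adjusted p = 1.17e-05, edgeR), from a median of 13.4 to 16.3 CPM. Zfand3, which lies next to Btbd9, and Ccdc167 had log2 fold changes of 0.05 and 0.03 and were not called.

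Near the imprinted Igf2r gene, Tcp1, a subunit of the cytosolic chaperonin, and Acat2, a cytosolic thiolase that makes acetoacetyl-CoA, were called higher, with log2 fold changes of 0.20 and 0.36 (adjusted p = 0.00103 and 1.78e-05, edgeR). Of the 50-base stretches of Acat2, 39.1% also occurred in another gene, most often in Acat3, which lies beside it and was not called (log2 fold change 0.16, adjusted p = 0.203, edgeR). Igf2r, which is expressed from the maternal copy in mouse liver, was at 26.9 to 55.8 CPM in B6 and 22.9 to 41.2 CPM in the CSS (log2 fold change -0.16, SE 0.07, adjusted p = 0.110, edgeR). Airn, the antisense RNA transcribed from the paternal copy, was near 1 CPM in either group (log2 fold change 0.54, SE 0.24, adjusted p = 0.109, edgeR). Here the maternal copy of chromosome 17 is the A/J copy. None of the 5 Cyp4f genes, which encode omega-hydroxylases of fatty acids and leukotrienes, was called (edgeR; 1 had an unadjusted p under 0.05, and DESeq2 called 0).

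A stretch near 24 Mb held several of the next largest changes in both directions. Abca3, a phospholipid transporter (chr17:24351950-24410201, plus strand), was at 20.8 to 40.8 CPM in B6 (median 30.7) and at 39.1 to 68.0 CPM in the CSS (median 53.9). In 7 of 8 mice it lay above all B6 mice, and the log2 fold change was 0.91 (SE 0.08, adjusted p = 3.48e-19, edgeR). Eci1, a mitochondrial isomerase needed to oxidise unsaturated fatty acids, rose from a median of 124.6 to 179.1 CPM (log2 fold change 0.37, SE 0.08, adjusted p = 0.000192, edgeR). Meiob, a gene of meiotic recombination with little expression in liver, rose from a median of 4.09 to 9.21 CPM (log2 fold change 0.99, SE 0.11, adjusted p = 1.13e-12, edgeR). Ccnf, which encodes cyclin F, was at 10.9 to 21.8 CPM in B6 (median 15.7) and at 8.20 to 13.6 CPM in the CSS (median 11.95). It fell by 0.62 on the log2 scale (SE 0.11, adjusted p = 6.77e-06, edgeR), and all 8 mice lay below the B6 median. No 50-base stretch of Meiob or Ccnf occurred in another gene.

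Further along, Enpp4, an ectonucleotide phosphodiesterase, was at 12.1 to 19.6 CPM in B6 (median 15.8) and at 18.8 to 27.9 CPM in the CSS (median 23.8), with 7 of 8 mice above all B6 mice (log2 fold change 0.62, SE 0.08, adjusted p = 4.08e-11, edgeR). Cyp39a1, an oxysterol hydroxylase of bile acid synthesis, was at 49.7 to 135 CPM in B6 (median 84.4) and at 29.7 to 95.2 CPM in the CSS (median 52.5), and it fell by 0.61 on the log2 scale (SE 0.19, adjusted p = 0.0161, edgeR), a call lost without CSS mouse 3, 4 or 5 (adjusted p up to 0.0767). Slc3a1, a subunit of the cystine and dibasic amino acid transporter, had the greatest decrease among chromosome 17 genes, a log2 fold change of -0.94 (SE 0.29, adjusted p = 0.0166, edgeR). The B6 range of Slc3a1, 8.65 to 74.8 CPM, enclosed nearly all CSS values, 7.78 to 30.5 CPM, and its call was lost without CSS mouse 3 or 5 (adjusted p up to 0.0533, edgeR). Slc3a1 overlaps Prepl on the opposite strand. Plcl2, which encodes a phospholipase C-like protein without known catalytic activity, was at 16.6 to 25.3 CPM in B6 (median 18.7) and at 10.3 to 16.1 CPM in the CSS (median 13.9), without overlap (log2 fold change -0.50, SE 0.07, adjusted p = 1.60e-10, edgeR).

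Further decreases were called for Fkbp5, Plin4 and Lrg1. Fkbp5, a co-chaperone and classical glucocorticoid target, fell by 0.66 on the log2 scale (SE 0.20, adjusted p = 0.0150, edgeR), from a median of 128 to 91.4 CPM. Plin4, a lipid droplet coat protein, and Lrg1, an acute-phase glycoprotein, fell by 0.64 and 0.63 (adjusted p = 0.0255 and 0.00926, edgeR). All 3 had overlapping ranges, and the calls of Fkbp5 and Plin4 were lost when single CSS mice were left out (mouse 3, 4 or 5 for Fkbp5 and mouse 3, 4 or 8 for Plin4, adjusted p up to 0.0609 and 0.122, edgeR). Of the 44 genes on chromosome 17 whose symbols begin with Zfp, Zkscan or Zscan, zinc finger genes that encode mostly transcriptional repressors, 5 were called higher and 2 lower, against 4 higher and 2 lower among 294 elsewhere. This group was formed after the values were seen, and its share on chromosome 17 was near the 17.1% of all genes there.

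The effect of chromosome 17 could also be measured in mice that took no part in the comparison above. In 4 further crosses the B6.A17 dams were mated with sires carrying A/J chromosome 4, 5, 8 or 10, which gave 4, 5, 5 and 4 mice heterozygous for both chromosomes. Each was compared with 7 or 8 mice heterozygous for the other chromosome alone. On chromosome 17, 45 genes were called beside chromosome 4 (7.14%), 28 beside chromosome 5 (4.44%), 109 beside chromosome 8 (17.3%) and 33 beside chromosome 10 (5.24%). Of the 108 genes called on the B6 background, 81, 87, 76 and 80 had the same direction there, and 48 had it in all 4 crosses, against 73 of the 522 genes of the chromosome that had not been called (14%). Across these 108 genes Pearson's r of the log2 fold changes was 0.90, 0.88, 0.85 and 0.88. Genes are not independent replicates, the fits share surrogate variables, and no test was made of r. In the single crosses, in the same order, 24, 21, 28 and 22 of the 108 were called in the same direction as on B6. In the opposite direction 1, 0, 4 and 0 of them were called. For 74 of the 108, none of the crosses gave a call in the same direction. Averaged over the 4 crosses, 112 of 630 genes were called (17.8%), among them 45 of the 108, all 45 in the same direction.

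**Figure D3:**
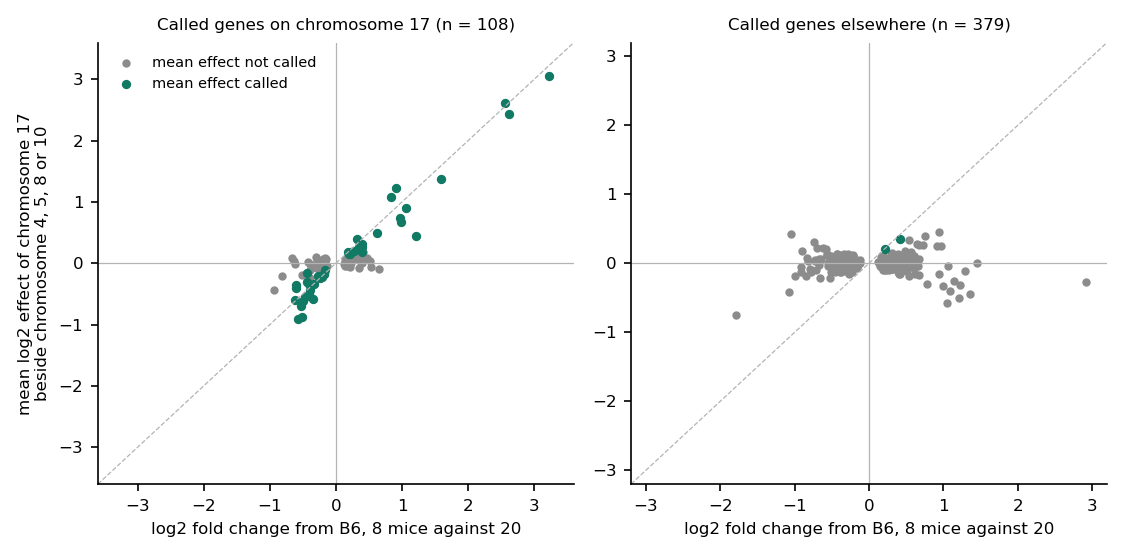
Log2 fold change in 8 (B6.A17 x B6)F1 against 20 B6 mice (horizontal) and the mean log2 effect of chromosome 17 in the 4 crosses with a second substitution (vertical), for the genes called in the first comparison on chromosome 17 (left) and elsewhere (right, without Myh4, whose value lies beyond the axis); the dashed line marks equal values and green points were called in the mean effect. Genes of chromosome 17 follow the line where their change is large, while nearly all genes elsewhere lie close to 0 on the vertical axis.

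Values of the named genes in these crosses follow. The log2 effect of H2-T10 was between 2.86 and 3.23 over the 4 crosses, that of H2-Q2 between 2.18 and 2.67, that of C4a between 2.49 and 2.72 and that of Glo1 between 0.77 and 1.13. Abca3 was between 1.16 and 1.36, above its value of 0.91 on B6, though the difference did not pass the test (mean difference 0.32, adjusted p = 0.0729, edgeR). H2-T22 was between -0.96 and -0.85, a stronger decrease than on B6 (mean difference -0.33, adjusted p = 0.0468, edgeR). H2-K1, H2-Q10, H2-T23, Ccnf, Enpp4, Cyp39a1 and Plcl2 had the same sign in all 4 crosses and passed the test in the mean. Fkbp5, Plin4 and Lrg1 had mean effects of 0.08, 0.03 and -0.02 there, with adjusted p-values of 0.741, 0.917 and 0.941 in edgeR. Over the 7 class II genes of chromosome 17 the median of the mean effects was -0.19, and 1 of them, not H2-Aa, was called in the mean. H2-Aa had a mean effect of -0.09, which differed from its increase on B6 (difference -0.74, adjusted p = 0.0468, edgeR). Over the chromosome this difference was called for 13 of 630 genes (2.06%), 10 of them among the 108.

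The calls off chromosome 17 depended more on single mice than those on it. Of the 380, 45 were called without each of the 8 CSS mice in turn, against 55 of the 108 on chromosome 17. Leaving out 1 CSS mouse at a time gave 76 to 560 calls elsewhere, with 216, 207, 93 and 76 without mouse 1, 2, 3 and 4, and 76 to 108 on chromosome 17. It was 1578 elsewhere without surrogate variables and 41 with 10 of them. Under all 16 alternatives 9 genes elsewhere were called, Timp3, Zkscan3, Carmil1, Tfrc, Cd93, Lipc, Uroc1, Aldh1b1 and Gm43305, and 33 on chromosome 17. A gene that the stricter count filter removed, such as H2-T10 or H2-Q2, was not tested there and is left out of these numbers for that reason.

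Off chromosome 17 the called genes with the greatest increases included several that are more abundant in male than in female liver. Cyp7b1, an oxysterol 7-alpha-hydroxylase of the alternative pathway of bile acid synthesis, was at 13.4 to 295 CPM in B6 (median 108) and at 109 to 464.2 CPM in the CSS (median 256). The ranges overlapped widely, all 8 mice were above the B6 median, and the log2 fold change was 1.29 (SE 0.31, adjusted p = 0.0139, edgeR). Hsd3b5, a male-specific 3-ketosteroid reductase, was at 1.09 to 58.7 CPM in B6 (median 9.87) and at 10.05 to 58.1 CPM in the CSS (median 41.1), with a log2 fold change of 1.45 (SE 0.37, adjusted p = 0.0176, edgeR). Slco1a1, an organic anion transporter, was at 89.3 to 629 CPM in B6 (median 348.6) and at 455 to 661.8 CPM in the CSS (median 570), with a log2 fold change of 0.63 (SE 0.17, adjusted p = 0.0325, edgeR). For these 3 genes all CSS mice lay above the lowest B6 value, and 2, 0 and 1 of them, in that order, lay above the highest.

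In all, 5 of 23 male-biased genes were called (21.7%, beside 3.0% of all genes elsewhere), all higher, the others being Selenbp2 and Nudt7. The median log2 fold change of the list was 0.63 with all 23 fitted values above 0. Of 17 female-biased genes none was called in edgeR, with a median of -0.23; 3 had an unadjusted p under 0.05, and DESeq2 called 0. The calls in the male-biased list depended on single mice, since 0 members were called without CSS mouse 4, 2 without mouse 3 and 7 without mouse 7, and 1 was called with 10 surrogate variables. Male-biased expression in mouse liver is set by the pulsatile secretion of growth hormone and develops around puberty, so mice of 5 weeks can stand at different points of it. Whether this bears on these calls was not tested. The urinary protein genes Mup6 and Mup9 rose from medians of 2.79 and 2.85 to 4.93 and 7.41 CPM (log2 fold changes 0.99 and 1.36, adjusted p = 0.0192 and 0.0309, edgeR), and 79.1% of the 50-base stretches of Mup9 and 43.9% of those of Selenbp2 also occurred in other genes.

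**Figure D4:**
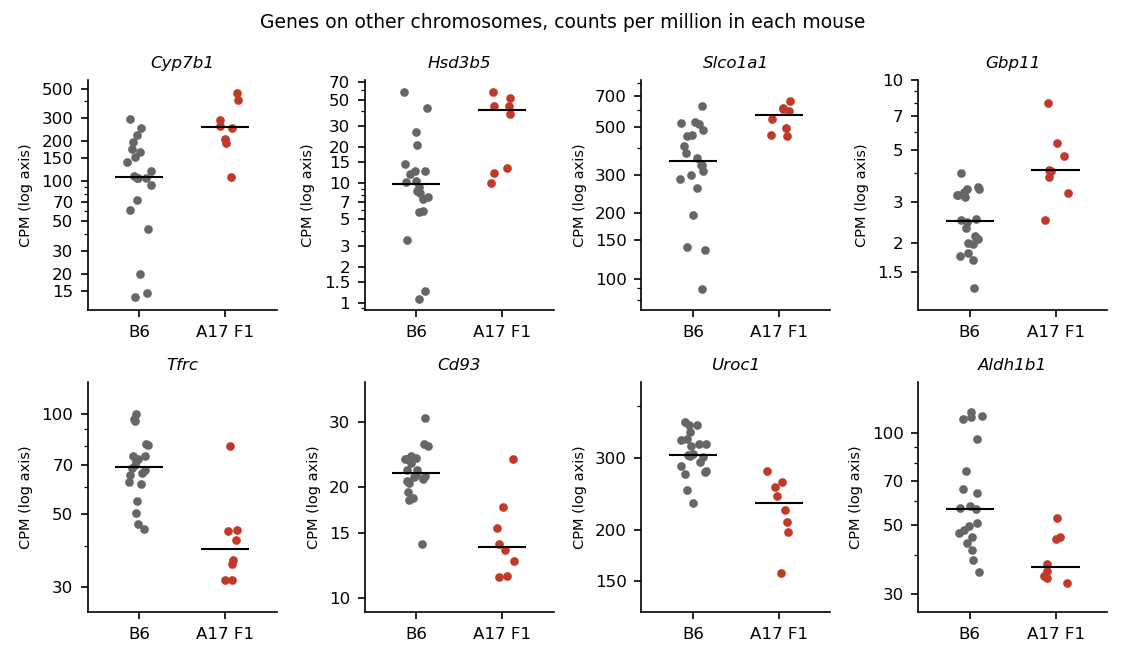
CPM on a log axis for 8 genes on other chromosomes in each of 20 B6 mice (grey) and 8 (B6.A17 x B6)F1 mice (red, marked A17 F1), with bars at the group medians. All 8 panels show overlapping groups whose medians differ, upward for Cyp7b1, Hsd3b5, Slco1a1 and Gbp11 and downward for Tfrc, Cd93, Uroc1 and Aldh1b1.

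Among 22 genes of bile acid synthesis and transport off chromosome 17, Cyp7b1 and Slco1a1 were the 2 called, and the median log2 fold change was 0.01. Slc10a2, the apical sodium-dependent bile acid transporter, was not on that list and was named for the size of its change. It was at 2.88 to 12.1 CPM in B6 (median 5.04) and at 1.46 to 4.68 CPM in the CSS (median 3.24). It fell by 1.08 on the log2 scale (SE 0.23, adjusted p = 0.00612, edgeR), with all 8 mice below the B6 median. Of the drug-metabolising cytochromes P450 and their regulators, Cyp2c37 and Cyp1a2 were called higher, by 0.60 and 0.38 on the log2 scale (adjusted p = 0.0150 and 0.0469, edgeR), and Nr1i2, the nuclear receptor PXR, lower, by a log2 fold change of -0.33 (adjusted p = 0.0172, edgeR). These were 3 of 41 measured, beside 3.0% of all genes elsewhere. Without CSS mouse 3 or 4, 1 of the list was called. Of 42 conjugating enzymes, the sulfotransferase gene Sult2a8 was called higher (log2 fold change 0.41) and the glutathione transferase gene Gstm7 lower (-0.26), and neither was called without CSS mouse 4 (adjusted p = 0.0893 and 0.0751, edgeR).

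Genes of amino acid breakdown and the urea cycle were called in the downward direction alone, 4 of 44, with a median log2 fold change of -0.17, beside 3.0% of all genes elsewhere. Markers of the zones of the liver lobule had fitted changes in opposite directions, with few called. Of 15 periportal genes, 13 had fitted changes below 0 (median -0.17), and Ass1 alone was called. Of 18 pericentral genes off chromosome 17, 15 had changes above 0 (median 0.19), with Cyp1a2 and Cyp2c37 called. These called genes are also counted in the amino acid and P450 lists. In the 4 crosses with a second substitution the medians of the mean effects were 0.00 for the periportal and 0.11 for the pericentral genes. The part of the zone markers in the amino acid result was not tested. Uroc1, the urocanate hydratase of histidine breakdown, was at 233 to 366.1 CPM in B6 (median 305) and at 158 to 278 CPM in the CSS (median 233). In 4 of 8 mice it lay below all B6 mice, and it fell by 0.38 on the log2 scale (SE 0.08, adjusted p = 0.00594, edgeR). Gldc, the glycine decarboxylase, Gpt, the alanine aminotransferase, and Ass1, the urea cycle enzyme argininosuccinate synthase, had log2 fold changes of -0.28, -0.32 and -0.37 (adjusted p = 0.0288, 0.0409 and 0.0409, edgeR). Between 1 and 6 members were called when each CSS mouse was left out in turn, the least without mouse 1, 3 or 4. Foxo1, which activates gluconeogenic genes in fasting, was the only one of 13 gluconeogenesis genes off chromosome 17 to be called, and fell by 0.45 on the log2 scale (SE 0.13, adjusted p = 0.0340, edgeR). Its call was lost without CSS mouse 1, 3, 4 or 6 (adjusted p up to 0.101) and with 10 surrogate variables (adjusted p = 0.112). Aldh1b1, a mitochondrial aldehyde dehydrogenase, was at 35.3 to 117.1 CPM in B6 (median 56.7) and at 32.6 to 53.0 CPM in the CSS (median 36.5), with a log2 fold change of -0.82 (SE 0.17, adjusted p = 0.00561, edgeR).

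Ribosomal protein genes were called in the upward direction alone. They were 11 of 74 off chromosome 17 (14.9%, beside 3.0% of all genes there) and 2 of 6 on it, Rps18 and Rpl10a. All 80 fitted changes were above 0, with medians of 0.16 off the chromosome and 0.10 on it. Rpl19, a protein of the large subunit, was at 40.9 to 58.3 CPM in B6 (median 47.5) and at 49.0 to 91.9 CPM in the CSS (median 57.4), with a log2 fold change of 0.24 (SE 0.05, adjusted p = 0.00845, edgeR). Rpl38, Rpl7a and Rplp1 had log2 fold changes of 0.26, 0.23 and 0.22. Their count was sensitive to the surrogate variables, with 73 of 80 called without any and 2 with 10, and it ranged from 4 without CSS mouse 3 to 32 without mouse 7. Among nuclear genes of the respiratory chain, calls were likewise upward, with 4 of 70 off chromosome 17 (5.71%) and Ndufv2 on it called higher. Ndufs6, a subunit of complex I, had a log2 fold change of 0.19 (SE 0.05, adjusted p = 0.0150, edgeR). Of all 75 measured, 51 were called without surrogate variables, 0 with 10 of them and 0 without CSS mouse 3 or 4 (edgeR; 31 had an unadjusted p under 0.05 in the fit with 5, where DESeq2 called 5). The 13 transcripts of the mitochondrial genome summed to 64985 to 130067 CPM in B6 (median 88152) and 81526 to 178479 CPM in the CSS (median 108269), and none was called in edgeR, while 3 had an unadjusted p under 0.05 and DESeq2 called 1. Whether this share of the reads bears on the nuclear genes was not tested.

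Of 46 interferon-stimulated genes, 3 were called (6.52%, beside 3.0% of all genes elsewhere), all higher. Among the 46, 42 fitted changes were above 0, with a median of 0.21. Apol9b, Ifi47 and Irf7, the last a transcription factor of the interferon response, had log2 fold changes of 0.45, 0.57 and 0.33 (adjusted p = 0.0194, 0.0263 and 0.0459, edgeR), and none of the 46 was called without CSS mouse 3 or without mouse 4, while 7 were without mouse 8. Gbp11, of the interferon-inducible guanylate-binding family and annotated as a polymorphic pseudogene, was at 1.28 to 4 CPM in B6 (median 2.48) and at 2.51 to 8.03 CPM in the CSS (median 4.10). It rose by a log2 fold change of 0.94 (SE 0.17, adjusted p = 0.000781, edgeR), and 5 of 8 mice lay above all B6 mice. In the acute-phase list Lcn2 and Il6ra were called lower among 29 (6.90%). Lcn2, an iron-chelating lipocalin, had a fitted log2 fold change of -1.79 (SE 0.51, adjusted p = 0.0343, edgeR), though its median was 8.96 CPM in B6 and 10.7 CPM in the CSS. The B6 mice reached 187.6 CPM and the CSS mice 12.1 CPM, and the call was lost without CSS mouse 3, 4 or 6.

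Tfrc, the transferrin receptor through which cells take up iron, was at 45.01 to 99.6 CPM in B6 (median 69.3) and at 31.4 to 80.2 CPM in the CSS (median 38.9). It fell by 0.90 on the log2 scale (SE 0.17, adjusted p = 0.000688, edgeR), and 7 of 8 mice lay below all B6 mice. It was the 1 gene called of 21 of iron handling. Transferrin receptor is also abundant in erythroid cells, whose 7 measured markers all had fitted changes below 0 (median log2 fold change -0.63) and summed to 112 to 746.8 CPM in B6 and 171 to 352 CPM in the CSS. None of the 7 was called (edgeR; 5 had an unadjusted p under 0.05, and DESeq2 called 0), and their part in the Tfrc result was not tested. Cd93, a surface glycoprotein of endothelial cells, was at 14.02 to 30.8 CPM in B6 (median 21.8) and at 11.4 to 23.7 CPM in the CSS (median 13.7), with a log2 fold change of -0.56 (SE 0.10, adjusted p = 0.000267, edgeR). Cemip2, a cell surface hyaluronidase, had a log2 fold change of -0.41 (SE 0.07, adjusted p = 0.000267, edgeR). Among 17 markers of liver sinusoidal endothelium, Flt1 and Cdh5 were called lower (log2 fold changes -0.39 and -0.19) and Clec4g higher (0.38). These made up 17.6% of the markers, beside 3.0% of all genes elsewhere. The summed level of the 17 was 705 to 911 CPM in B6 (median 823) and 688.97 to 843 CPM in the CSS (median 800). Without CSS mouse 4, 1 of the 17 was called. Col1a2, a fibrillar collagen, was the 1 called of 17 stellate cell and fibroblast markers, with a log2 fold change of -0.40 (adjusted p = 0.0335, edgeR).

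**Figure D5:**
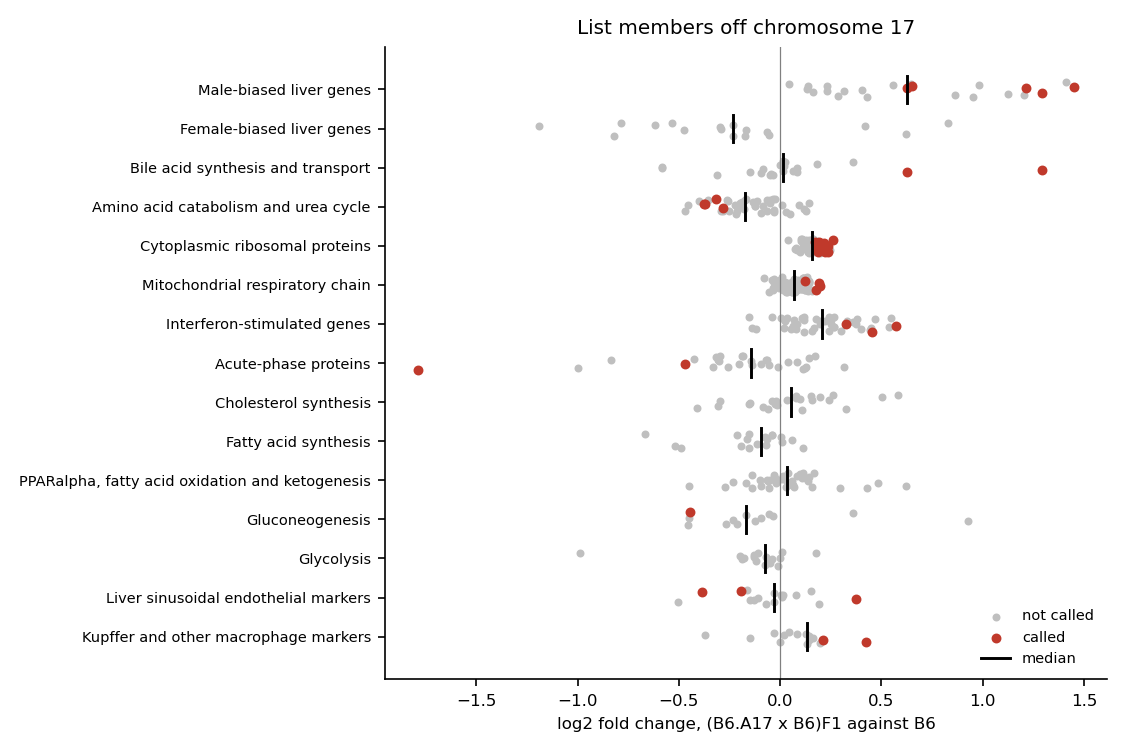
Log2 fold change in (B6.A17 x B6)F1 against B6 for the members of 15 gene lists off chromosome 17; red points were called, grey points not called, and the black bar is the list's median. Called members lie on 1 side of 0 in the male-biased, ribosomal, respiratory chain, interferon, amino acid and acute-phase lists, and on both sides among endothelial markers.

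Since 3.0% of all genes elsewhere were called, lists of this size can hold no call without differing from that share, and nothing is read from the following counts. No gene off chromosome 17 was called in edgeR in several pathways. These were cholesterol synthesis (0 of 24), fatty acid synthesis (0 of 18), the targets of PPAR-alpha in fatty acid oxidation and ketogenesis (0 of 38), glycolysis (0 of 17), endoplasmic reticulum stress (0 of 27), the targets of NRF2 (0 of 23), the cell cycle (0 of 35) and coagulation (0 of 24). In that order, 6, 4, 6, 6, 3, 4, 2 and 2 members had an unadjusted p under 0.05, beside 2357 of all 12659 genes elsewhere. DESeq2 also called 0 in 6 of these lists as a whole, and in the other lists, which each had a chromosome 17 member called in edgeR, it called 1 for cholesterol synthesis (Acat2 in edgeR) and 2 for PPAR-alpha (Eci1 in edgeR). Single members of further lists were called. Usp2, a clock-controlled deubiquitinase, fell by 1.0 on the log2 scale (adjusted p = 0.0464, edgeR), 1 of 20 clock genes. Lipc, hepatic lipase, and Apoa2, an apolipoprotein of high-density lipoprotein, had log2 fold changes of 0.31 and 0.18, and Lpl, lipoprotein lipase, which the liver represses after birth, of -0.58. Igfbp3, the main carrier of IGF1, was called lower (-0.33) and Lifr, the leukemia inhibitory factor receptor, higher (0.30) among 15 genes of the growth hormone and IGF axis.

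Genes off chromosome 17 were examined in the same 4 crosses. Off chromosome 17, 0 genes were called beside chromosome 4 (0.00%; 1404 had an unadjusted p under 0.05 in edgeR, DESeq2 size factors also gave 0, and the DESeq2 test was not run), 1 beside chromosome 5 (0.00790%), 1230 beside chromosome 8 (9.72%) and 2 beside chromosome 10 (0.0158%). Of the 380 genes, 135, 225, 184 and 184 had the same direction as on B6, and 15 had it in all 4 crosses (3.95%), against 626 of the 12279 genes not called (5.10%) and 5.06% of all genes there. Beside chromosome 8, 11 of the 380 were called in the same direction as on B6 and 10 in the opposite one. Pearson's r across the 380 genes was -0.49, 0.45, 0.01 and -0.47. The 380 include the muscle genes Myh4 and Ttn, at 5.09 and 2.91 on B6, beside a median absolute change of 0.31. Neither was called without CSS mouse 5. As r without them was not computed, no reversal or repeat of the effects is read from it. The mean effect over the 4 crosses was called for 19 of 12659 genes (0.150%), and for 2 of the 380, Zkscan3 and Mfsd4b1, the latter named after its values were seen. Zkscan3, a zinc finger gene on chromosome 13, had a log2 fold change of 0.42 on B6 and a mean of 0.35 over the crosses (adjusted p = 3.63e-07, edgeR).

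For 121 of the 380 genes the difference between the mean effect in the crosses and the effect on B6 was itself called, as it was for 197 of all 12659 genes (1.56%). Since the 380 were chosen by their effect on B6, which enters this difference, their share was bound to be high. Among the named genes, Cyp7b1 had a mean effect of -0.11 in the crosses, Slco1a1 of -0.16, Tfrc of 0.18, Cd93 of 0.12, Gbp11 of -0.15 and Uroc1 of nearly 0. For each of these 6 genes the difference was called, with adjusted p-values of 0.0432, 0.0418, 0.0023, 0.0013, 0.00351 and 0.0285 in edgeR. For the male-biased list the median of the mean effects was -0.21, and for the ribosomal list off chromosome 17 it was 0.04.

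Markers of muscle and pancreas were among the calls. Ttn and Myh4, genes of striated muscle, were called higher with fitted log2 fold changes of 2.91 and 5.09, 2 of the 3 muscle markers measured. Ttn was at 0.784 to 9.14 CPM in B6 (median 1.14) and at 1.43 to 97.0 CPM in the CSS (median 2.59), and Myh4 reached 1.45 CPM in B6 and 23.5 CPM in the CSS. Without CSS mouse 5 neither was called (log2 fold changes 0.99 and 2.03, adjusted p = 0.617 and 0.530, edgeR). Cela1, an elastase of the pancreas and the only 1 of its 17 listed markers measured, was called higher, at 3.27 to 6.43 CPM in B6 (median 4.64) and 5.21 to 11.4 CPM in the CSS (median 6.71), with all 8 CSS mice above the B6 median. The Cela1 call was lost without CSS mouse 4 (adjusted p = 0.0824, edgeR). Neutrophil markers summed to 7.45 to 207 CPM in B6 and 5.51 to 19.9 CPM in the CSS, and Lcn2 was among them. Cholangiocyte, T cell and B cell markers held no call in edgeR, with 1 of 7, 0 of 3 and 0 of 8 members off chromosome 17 at an unadjusted p under 0.05, and DESeq2 called 0 in each.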

How the data were processed

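Liver RNA of 154 mice was sequenced, and the deposited values are gene counts, unnormalised. According to the methods and the submitters' processing notes, the authors aligned single-end reads of 50 bases with TopHat2 to mm10, placed remaining reads on an individualised A/J genome, and counted with HTSeq. The strand setting is not given in the sources used here. The deposited table holds 13289 genes, the number the authors give as left by their low-count filter. Their stated rule, at least 15 counts in 75% of the mice, kept 11852 of these genes when applied to the deposited counts. It served as the stricter filter named below, and the reason for the difference was not tested.

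From these counts, 8 main effects, 15 interactions and 5 surrogate variables (sva 3.50.0) were fitted over all 24 strains with the quasi-likelihood F-test of edgeR 4.0.16 in R 4.3.3, after TMM scaling. Benjamini-Hochberg adjustment was made separately for genes on chromosome 17 and elsewhere, at a threshold of 0.05. SE is the absolute log2 fold change divided by the square root of F. Symbols, positions and shared 50-base stretches came from GENCODE annotation of mm10. Total counts per mouse ranged from 4638701 to 30465477 over the series. On simulated counts for the 28 mice, 69 of 100 genes changed by 0.5 on the log2 scale and 98 of 100 changed by 1 were recovered, with 7 false calls. These counts were drawn without hidden variation and fitted without surrogate variables or the other strains. The changed genes had a mean of at least 1 CPM. The simulation therefore does not give the error rate of the calls reported here.

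Genes were named by rule: the 12 greatest changes on chromosome 17 and 15 elsewhere whose mean log2 CPM reached 2, the 5 smallest p-values, and up to 4 called members of each list, besides listed genes. Exceptions are stated. Members and lists were chosen with earlier results of these data known. The labels give no replicate numbers, so mice were numbered in accession order. Mice are separate animals, and p-values measure the spread between them. DESeq2 1.42.0, other numbers of surrogate variables, a stricter filter, 1 adjustment over all genes, the 28 mice alone and leaving out each CSS mouse were alternatives. Not every gene of the lists is reported here.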

Additional observations from a re-analysis of the deposited data

Results flagged for a closer look

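A single CSS mouse stood far from the other 7 in 3 of 32 genes examined in this way, and about 1 in 20 groups would show such a mouse by chance. Slc3a1 was at 30.5 CPM in CSS mouse 6, with the next mouse at 18.5 CPM. Tfrc was at 80.2 CPM in mouse 7, with the next at 44.7 CPM, while the group as a whole was lower than B6. Ttn was at 97.0 CPM in mouse 5, with the next at 35.6 CPM.

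For 10 of the same 32 genes, those named for the size of their change or their smallest p, the effect of chromosome 17 on the B6 background differed from its mean effect beside a second substitution, by the test of the interaction in edgeR with Benjamini-Hochberg adjustment. The difference is the mean effect in the 4 crosses minus the effect on B6, on the log2 scale. Among genes that were higher on B6 it was -1.41 for Cyp7b1 (adjusted p = 0.0432), -1.71 for Selenbp2 (adjusted p = 0.0311), -1.32 for Mup6 (adjusted p = 0.0198), -1.79 for Mup9 (adjusted p = 0.0261), -1.09 for Gbp11 (adjusted p = 0.00351) and -0.74 for H2-Aa (adjusted p = 0.0468). Among genes that were lower on B6 it was 1.09 for Tfrc (adjusted p = 0.0023), 0.68 for Cd93 (adjusted p = 0.0013), 0.86 for Aldh1b1 (adjusted p = 0.0198) and 0.38 for Cemip2 (adjusted p = 0.0195). Genes named by their lists, such as H2-T22, Slco1a1 and Uroc1, were not among the 32, and differences called for some of them stand in the report. In edgeR none of these mean effects in the crosses was itself called. The 10 genes were named for their effect on B6, which enters the difference, so their number is not a count over genes chosen independently of it.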

How the results depend on the processing

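The 108 calls on chromosome 17 became 69 with 1 adjustment over all genes and 56 in the 28 mice alone with 2 surrogate variables, an alternative added after seeing the data. Leaving out each CSS mouse gave 76 to 108. The 380 calls elsewhere became 1578 without surrogate variables, 41 with 10 of them and 38 in the 28 mice alone with 2, and leaving out each CSS mouse gave 76 to 560. Without surrogate variables the calls beside chromosome 8 became 179 on chromosome 17 and 2682 elsewhere, and the 1 call elsewhere beside chromosome 5 became 0. With 10 surrogate variables the calls elsewhere became 547 beside chromosome 8 and 1 beside chromosome 10. The cause was not tested. The mean over the 4 crosses and its difference from the effect on B6 were also added after seeing the data. The DESeq2 scaling and test and the stricter filter moved neither count by more than 1.5 times. The filter removed H2-T10 and H2-Q2. No called gene among those named changed direction under any alternative in which it was measured. With 10 surrogate variables 54 of those named by rule lost their call. No paired analysis was possible because the labels give the mice no replicate numbers. Small changes can be missed, as the recovery of known changes given with the processing shows for the simpler fit simulated there. Depth was not varied there, so its part in this was not tested.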
